A study of Mus musculus with 20 samples.

Results

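The genes described here are 10 matrix remodelling genes of mouse liver: the inhibitor genes Timp1, Timp2 and Timp3, the metalloproteinase genes Mmp2, Mmp12, Mmp13 and Mmp14, and the crosslinking enzyme genes Lox, Loxl1 and Loxl2. They were taken by name, 10 of the 46603 gene identifiers in the count files, and all 10 passed the filter on low counts that left 14661 genes. Bulk polyadenylated RNA was sequenced from 20 liver samples of male mice aged 2 months, in 4 groups of 5: wild type (WT) at baseline, WT after partial hepatectomy (PHx), knockout (KO) at baseline and KO after PHx. The WT mice were C57BL/6J mice from a vendor. The KO mice, EedHepKO, combined an Albumin:Cre transgene with a floxed Eed allele whose loxP sites flank exons 3 and 6, so that deletion was directed to hepatocytes and other liver cells were not its target. Eed encodes a core subunit of polycomb repressive complex 2, which methylates histone H3. Baseline tissue was lobes 1, 2 and 3, taken out at the operation, and tissue after PHx was the remaining lobes 4, 5 and 6 at 30 h (1 mouse per genotype), 40 h (2) or 48 h (2). Genotype therefore cannot be told apart from colony, nor the stage from the lobe.

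Matrix metalloproteinases cut collagens, elastin and other matrix proteins, and the tissue inhibitors of metalloproteinases (TIMPs) bind their active sites. Lysyl oxidase and its relatives oxidise lysines in collagen and elastin so that the fibres become crosslinked, which makes a scar stiffer and harder to digest. In liver, stellate cells, myofibroblasts and macrophages are the textbook sources of most of these transcripts, and both scarring and regrowth after resection involve them.

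Totals ran from 21634890 to 30461351 counts per library. Values below are CPM, counts scaled to library size with TMM factors (per 1e+06), and a gene is called where its Benjamini-Hochberg adjusted p over the 14661 genes was under 0.05 in edgeR's quasi-likelihood test. Eed was at 14.6 to 23.2 CPM in the 10 WT libraries and at 2.75 to 7.52 CPM in the 10 KO libraries. The summed level of 5 hepatocyte markers was 117265 to 137975 CPM in WT and 73308 to 103236 CPM in KO at baseline, and 71795 to 116043 CPM and 40975 to 89152 CPM after PHx, so hepatocyte transcripts were abundant in every library. At baseline every KO sum lay below every WT sum. There 2 of the 5 markers were called lower in KO, where 4.89% of all genes were. After PHx 1 of the 5 was called lower in KO, where 8.2% of all genes were. WT baseline replicate 1 stood apart from its group: its counts differed from those of the other 4 by a chi-square per gene of 310 to 337, while those 4 differed from each other by 25.7 to 38.5. Without it, 8 of the 10 genes in place of 7 were called higher in KO at baseline, Loxl2 being the addition, while the calls over all genes went from 1631 to 1411 higher and from 717 to 511 lower. After PHx in WT, 4 in place of 3 were called higher, with Loxl1 and Loxl2 added and Lox lost, while the calls over all genes went from 1677 to 1302 higher and from 1273 to 998 lower. The log2 fold changes of Timp1 and Mmp13 at baseline were 6.53 and 4.76 without it. In bulk tissue, a change in the number of cells of a type cannot be told apart from a change in transcript per cell.

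In mm10 (GRCm38), Mmp13 (ENSMUSG00000050578, chromosome 9, 7272514 to 7283331, plus strand) and Mmp12 (ENSMUSG00000049723, chromosome 9, 7344381 to 7369499, plus strand) are neighbours in a row of 9 protein-coding metalloproteinase genes, 61.0 kilobases apart. The RefSeq promoter table (GRCm38.p6) holds 6 of the 10 genes, namely Timp1, Timp2, Timp3, Mmp12 with a pair of starts, Mmp13 and Mmp14. The 250 bases before the start are printed for Mmp13 and for the second Mmp12 start, because these neighbours were both called higher in KO at baseline and lower after PHx in KO, and for Timp1, which was called higher in the latter comparison. They are written 5′ to 3′ on the gene's strand, with the letters TGANTCA, the core of the AP-1 motif, in capitals.
Mmp13 (chr9:7272264-7272513): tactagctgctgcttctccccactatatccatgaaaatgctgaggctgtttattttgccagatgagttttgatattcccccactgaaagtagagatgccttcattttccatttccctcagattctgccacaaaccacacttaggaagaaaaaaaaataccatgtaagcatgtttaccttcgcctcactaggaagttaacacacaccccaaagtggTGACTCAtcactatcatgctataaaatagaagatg
Mmp12 (chr9:7347124-7347373): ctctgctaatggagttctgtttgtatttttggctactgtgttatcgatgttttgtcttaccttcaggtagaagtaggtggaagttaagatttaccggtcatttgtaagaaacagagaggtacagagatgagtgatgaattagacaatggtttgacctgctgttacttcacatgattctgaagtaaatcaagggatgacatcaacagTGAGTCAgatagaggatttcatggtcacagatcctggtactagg
Timp1 (chrX:20869916-20870165): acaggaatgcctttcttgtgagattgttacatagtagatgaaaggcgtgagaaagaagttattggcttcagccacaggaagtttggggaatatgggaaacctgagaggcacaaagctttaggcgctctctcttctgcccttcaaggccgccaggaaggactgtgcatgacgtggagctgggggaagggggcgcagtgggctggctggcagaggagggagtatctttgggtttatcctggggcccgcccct
TGANTCA reads the same on both strands and occurred in 6.75% of the 32851 promoter windows of this length in the table. Its first base lay 35 bases before the start in Mmp13 and 44 bases before the second start in Mmp12, and it was not in the windows of Timp1, Timp2, Timp3, Mmp14 or the first Mmp12 start. The same windows also differed in CpG dinucleotides, with 21 in Timp2, 18 in Timp3, 10 in Mmp14, 6 in Timp1, 2 and 0 in Mmp12 and 1 in Mmp13, against a median of 6 over the table. These matches describe the letters only, since no binding or methylation was measured.

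KO livers had more RNA of most of these genes than WT livers before the operation. At baseline 7 of the 10 were called higher and 0 lower in KO, where 16% of all genes were called, 11.1% higher and 4.89% lower. The exceptions were Timp3, Mmp14 and Loxl2, with log2 fold changes of 0.49, 0.79 and 0.78. Under library size scaling all 10 were called higher, as were 3521 genes in place of 1631 over all genes. The 5 KO samples did not overlap the 5 WT samples in 9 of the 10 genes, Loxl2 being the other, and in 27.9% of all genes. The median log2 fold change of the 10 was 1.97, beside -0.03 over all genes tested. After PHx, 5 were called higher in KO and 0 lower, against 24.2% of all genes (16% higher and 8.2% lower), and the groups did not overlap in 1 gene, Loxl1, a share equal to the 10% over all genes. The median of the 10 was then 1.04, beside -0.01 over all genes.

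The operation was followed by fewer calls in WT than in KO, although that contrast in counts is itself no test. In WT, 3 of the 10 were called higher after PHx and 0 lower (all genes 20.1%, 11.4% higher and 8.68% lower), and the groups did not overlap in those 3, Timp1, Mmp14 and Lox (all genes 17.8%). In KO, 4 were called higher and 3 lower (all genes 29.5%, 17.5% higher and 12.1% lower), and the groups did not overlap in 2, Mmp12 and Mmp13 (all genes 13.9%). The genotype comparisons have no library in common, while each PHx comparison shares 5 libraries with each of them, so their values are given side by side and not correlated. With library size in place of TMM higher genes made up 96.9% of all calls at baseline in place of 69.5%, and their share moved from 66.1% to 92.9% between genotypes after PHx, from 56.8% to 86.7% after PHx in WT and from 59.1% to 80.9% in KO. In the plot of levels by sample, the mean levels of Mmp12 and Mmp13 are highest in the KO baseline group, whose Mmp12 range also takes in 1 WT sample after PHx, whereas Timp1, Mmp14 and Lox are higher after PHx in both genotypes.

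**Figure D1:**
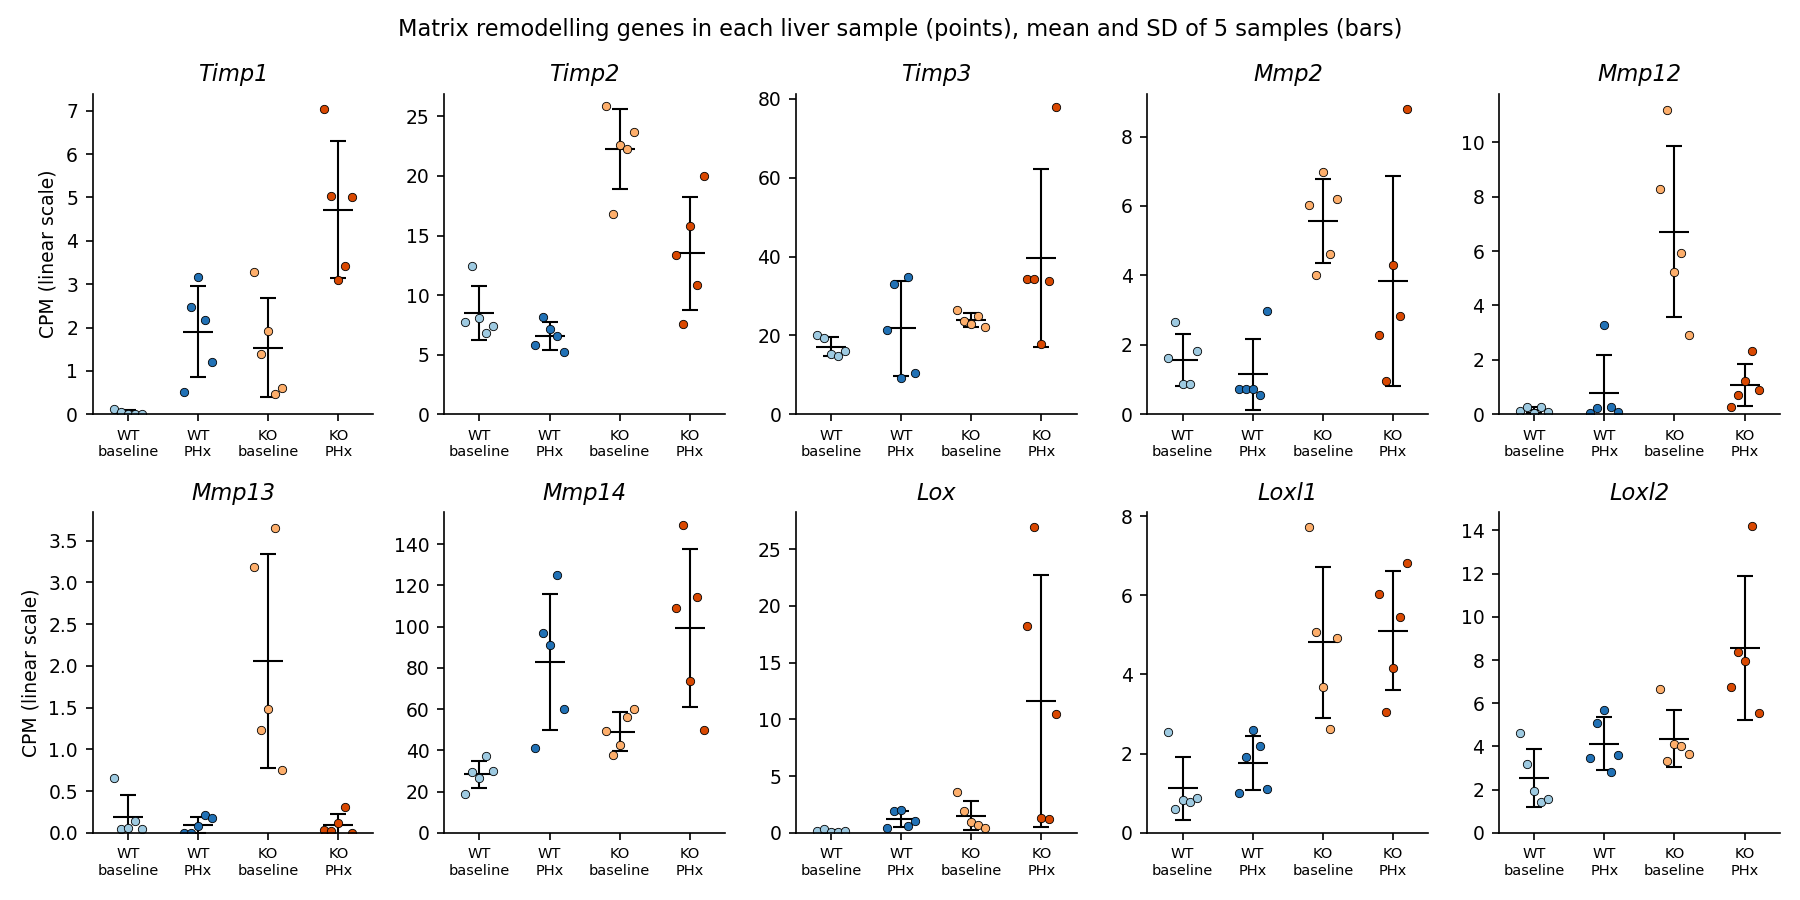
CPM of each of the 10 genes (y axis, linear from 0) in the 4 groups (x axis); each point is 1 liver sample, and the bars are mean and SD of 5 samples, cut off at 0. All 5 KO baseline samples of Mmp12 (2.91 to 11.2 CPM) lie above the KO samples after PHx (0.27 to 2.31 CPM), and Lox spreads from 1.25 to 26.9 CPM in KO after PHx.

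Timp1 (ENSMUSG00000001131, chromosome X, 20870166 to 20874735, plus strand) encodes a secreted inhibitor that is low in resting liver and known to rise in injury. WT livers at baseline held 3 Timp1 counts in all, at 0.130 and 0.050 CPM in replicates 1 and 2 and 0 in replicates 3, 4 and 5. KO livers at baseline had 3.29, 1.39, 1.93, 0.457 and 0.610 CPM (replicates 7, 8, 10, 11 and 12). WT livers after PHx had 0.523, 2.48, 3.16, 2.16 and 1.20 CPM (replicates 1 to 5). Resting KO and regenerating WT livers thus spanned much the same low range, and each was clear of resting WT. The ratio of summed counts, scaled to library size with TMM factors, was 54.3 for KO against WT at baseline (95% exact counting interval 18.3 to 265) and 62.8 for WT after PHx against baseline (21.2 to 307). The fitted log2 fold changes, which depend on edgeR's prior count at such levels, were 5.42 (SE 0.82, adjusted p 0.000138 in edgeR) and 5.72 (SE 0.82, adjusted p 0.000145 in edgeR). Replicate 1 of WT at baseline holds 2 of the 3 counts, and without it the ratios were 137 (24.4 to 5451) and 159 (28.3 to 6305), and the fitted log2 fold changes 6.53 and 6.83.

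KO livers after PHx had the highest Timp1, at 7.04, 5.03, 3.09, 3.42 and 5.02 CPM, and the lowest of them lay just under the highest WT sample after PHx. Against KO at baseline the rise was 1.61 on the log2 scale (SE 0.57, adjusted p 0.0387 in edgeR), and it was seen in 5 of 5 mice. That call ended when any of KO baseline replicates 8, 10, 11 or 12 or KO PHx replicates 7, 8 or 12 was left out, with log2 fold changes of 1.37 to 1.70 and adjusted p of 0.0570 to 0.0939. It also ended without a filter on low counts (adjusted p 0.0583 in edgeR). KO against WT after PHx gave 1.31 (SE 0.56, adjusted p 0.0971 in edgeR), which was called under library size scaling alone (1.70, adjusted p 0.0328). Timp1 overlaps Syn1, a neuronal gene on the opposite strand, which had 0 to 22 counts per library.

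Timp2 (ENSMUSG00000017466, chromosome 11, 118301069 to 118355740, minus strand) encodes an inhibitor that also helps MMP14 activate pro-MMP2 at the cell surface. It was higher in KO at both stages. WT livers at baseline had 7.74, 12.4, 8.08, 6.79 and 7.43 CPM and KO livers 25.9, 16.8, 22.6, 22.3 and 23.7 CPM, with no overlap and a log2 fold change of 1.39 (SE 0.24, adjusted p 0.000462 in edgeR). After PHx the WT livers had 5.84, 8.18, 7.19, 6.59 and 5.19 CPM and the KO livers 13.4, 7.56, 15.8, 10.8 and 20.0 CPM, with a log2 fold change of 1.03 (SE 0.24, adjusted p 0.00342 in edgeR). KO PHx replicate 8 was the only KO library within the WT range. Timp2 was lower after PHx than at baseline in 5 of 5 KO mice and in 4 of 4 numbered WT mice. The change in KO was -0.72 (SE 0.23, adjusted p 0.0266 in edgeR), and that in WT was -0.36 (SE 0.23, adjusted p 0.289 in edgeR), not called. The call in KO ended with only the samples compared (adjusted p 0.0858 in edgeR), under library size scaling (0.0539), without a filter (0.0513), and without KO baseline replicate 7 or 12 or KO PHx replicate 7, 8 or 11 (-0.70 to -0.56, adjusted p 0.0517 to 0.0836).

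Timp3 (ENSMUSG00000020044, chromosome 10, 86300372 to 86349506, plus strand), whose product binds to the matrix itself, was not called in any of the 4 comparisons with TMM scaling and all samples. It was at 14.8 to 20.0 CPM in WT and 22.1 to 26.4 CPM in KO at baseline, and at 9.17 to 34.9 CPM and 17.8 to 77.9 CPM after PHx. The groups did not overlap at baseline, yet the log2 fold change was 0.49 (SE 0.35, adjusted p 0.371 in edgeR) in the fit of all 20 samples. With only the 10 baseline samples fitted, the spread came from those samples alone, and 0.51 was called (adjusted p 0.00436 in edgeR). After PHx the log2 fold change was 0.86 (SE 0.35, adjusted p 0.0802 in edgeR), and it was called without WT PHx replicate 2 or 4 or KO PHx replicate 10 (1.05 to 1.10, adjusted p 0.0221 to 0.0444). The change after PHx was 0.35 (SE 0.35) in WT and 0.72 (SE 0.35) in KO, where it was called without KO PHx replicate 10 (0.91, adjusted p 0.0386). Library size scaling called Timp3 in KO after PHx (0.92, adjusted p 0.0364) and between genotypes at both stages (0.98 and 1.21, adjusted p 0.0353 and 0.00948). KO PHx replicate 12, the 30 h sample, held the value of 77.9 CPM.

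Among the metalloproteinases, Mmp12 and Mmp13 were the pair with the sharpest pattern. Mmp12 encodes macrophage elastase, and Mmp13 encodes collagenase 3, the main interstitial collagenase of rodents. Mmp12 was at 0.130, 0.250, 0.0515, 0.275 and 0.0917 CPM in WT at baseline, 16 counts in all, and at 8.26, 11.2, 5.24, 5.94 and 2.91 CPM in KO at baseline, 871 counts. Mmp13 was at 0.650, 0.050, 0.0515, 0.138 and 0.0459 CPM in WT at baseline and at 3.19, 1.23, 1.48, 3.66 and 0.751 CPM in KO. Every KO sample lay above every WT sample for both genes. The log2 fold change at baseline was 5.34 for Mmp12 (SE 0.99, adjusted p 0.000976 in edgeR) and 3.51 for Mmp13 (SE 0.91, adjusted p 0.0116 in edgeR).

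After PHx both genes were low again in KO. Mmp12 in KO after PHx was at 0.270, 0.703, 1.22, 2.31 and 0.899 CPM, lower than at baseline in 5 of 5 mice, a change of -2.63 (SE 0.83, adjusted p 0.0237 in edgeR). Mmp13 was at 0.0300, 0.0220, 0.114, 0.306 and 0 CPM, lower in 5 of 5 mice, a change of -4.34 (SE 0.93, adjusted p 0.00308 in edgeR). Neither gene's KO samples after PHx overlapped those at baseline. The Mmp12 call ended without KO baseline replicate 8 or KO PHx replicate 7 or 8, at -2.52 to -2.35 and adjusted p of 0.0526 to 0.0617. The Mmp13 call held under each alternative in which the gene was tested. The filter of at least 1 CPM in at least 5 samples left Mmp13 out.

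WT livers after PHx did not share one Mmp12 level. Replicates 1, 2, 4 and 5 had 0.0436, 0.217, 0.284 and 0.0687 CPM, and replicate 3, a 40 h sample, had 3.27 CPM, in the range of KO livers at baseline. Across all 5 the change after PHx in WT was 2.24 (SE 0.93, adjusted p 0.0960 in edgeR). It was called with DESeq2 (2.31, adjusted p 0.0401), without WT PHx replicate 1 (2.54, adjusted p 0.0495) and under library size scaling (2.56, adjusted p 0.0475). KO against WT after PHx was 0.47 (SE 0.81, adjusted p 0.71 in edgeR). Without replicate 3 the latter became 2.77 and was called (adjusted p 0.00549 in edgeR), so this single library decides it. Mmp13 after PHx was at 0 to 0.213 CPM in WT and 0 to 0.306 CPM in KO, with a log2 fold change of 0.02 (SE 1.01, adjusted p 0.992 in edgeR). These values rest on 13 counts in WT and 16 in KO.

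Of the 9 genes of the row on chromosome 9, 6 were tested, and after PHx the neighbours of Mmp12 and Mmp13 did not follow them as a block. Mmp27 was also called higher in KO at baseline (2.60, adjusted p 0.0182 in edgeR). Mmp3, Mmp8 and Mmp7 had positive log2 fold changes there, 2.69, 1.93 and 1.85, and were not called. Their scaled ratios of summed counts were 9.22 (95% exact counting interval 1.36 to 394), 4.61 (1.35 to 24.4) and 4.22 (0.922 to 39.2). Mmp3 (stromelysin-1) and Mmp7 (matrilysin) were instead called higher after PHx in KO, by 3.46 (adjusted p 0.0111 in edgeR) and 2.53 (adjusted p 0.0376 in edgeR), in the comparison in which Mmp12 and Mmp13 were called lower. Mmp3, Mmp7 and Mmp8 (neutrophil collagenase) were called higher after PHx in WT. WT livers at baseline held 1, 2 and 3 counts of these 3 genes, and the scaled ratios of summed counts were 38.8 (95% exact counting interval 6.65 to 1560), 26.2 (6.99 to 221) and 55.5 (18.7 to 271). Mmp1b and Mmp20 had 0 counts in all 20 libraries, and Mmp10 had 3 in all. Mmp1b overlaps Mmp12 on the opposite strand, so no read of the overlap was counted for it.

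**Figure D2:**
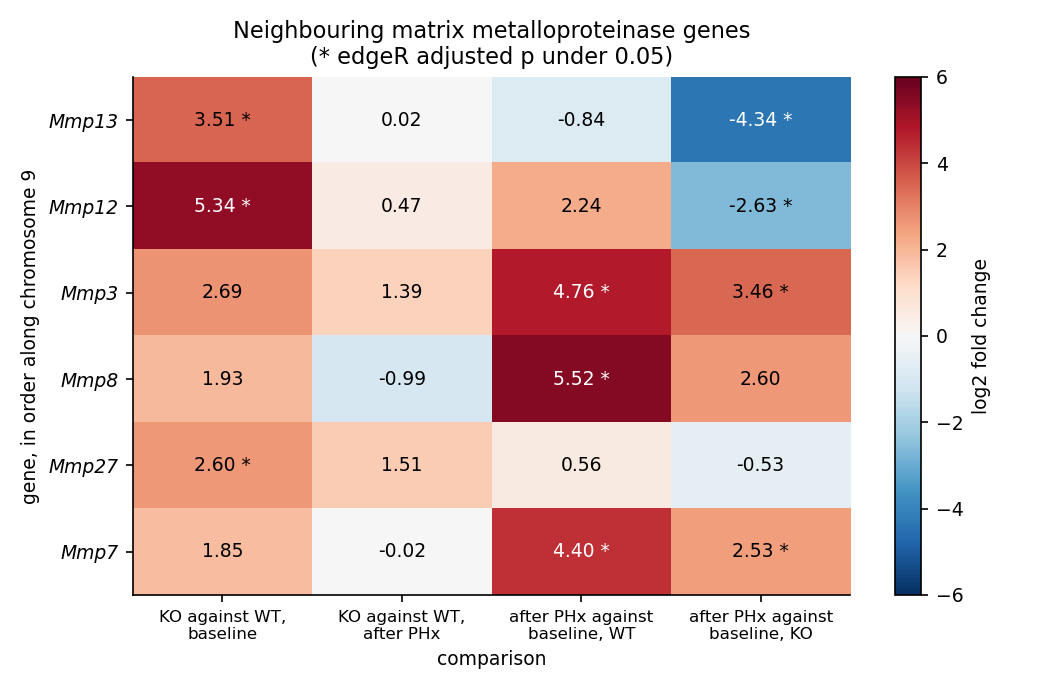
Log2 fold change (colour and printed value) of the 6 tested metalloproteinase genes in their order along chromosome 9 (y axis) in 4 comparisons (x axis); an asterisk marks an edgeR adjusted p under 0.05, and Mmp3, Mmp8 and Mmp7 had 1, 3 and 2 counts in WT at baseline. In the last column Mmp13 (-4.34) and Mmp12 (-2.63) are negative and Mmp3 (3.46) and Mmp7 (2.53) positive.

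Mmp14 (ENSMUSG00000000957, chromosome 14, 54431612 to 54445364, plus strand) encodes a membrane-bound metalloproteinase that cuts collagen at the cell surface and activates pro-MMP2. It was the most abundant of the 10 per kilobase of exon in each of the 4 groups, from 4.76 ± 1.11 CPM per kilobase in WT at baseline to 16.6 ± 6.44 in KO after PHx (SD, n = 5). WT livers had 18.8, 29.7, 26.4, 37.1 and 30.0 CPM at baseline and 41.1, 97.1, 91.0, 125 and 59.9 CPM after PHx, with no overlap and higher in 4 of 4 numbered mice. The rise in WT was 1.54 (SE 0.29, adjusted p 0.00154 in edgeR). KO livers had 49.1, 37.7, 42.3, 56.0 and 60.2 CPM at baseline and 109, 149, 73.4, 114 and 50.0 CPM after PHx, a rise of 1.02 (SE 0.29, adjusted p 0.0148 in edgeR) seen in 4 of 5 mice. The exception was replicate 12, the 30 h sample. KO against WT was not called at baseline, at 0.79 (SE 0.29, adjusted p 0.0692 in edgeR), although all KO samples were above all WT samples. It was called with DESeq2 (0.81, adjusted p 0.0395), with only the 10 baseline samples (0.81, adjusted p 0.00216), with a term for hours (0.79, adjusted p 0.0192) and under library size scaling (1.25, adjusted p 0.0117), and also without WT PHx replicate 1, 4 or 5 or KO PHx replicate 8, 11 or 12 (0.79 to 0.85, adjusted p 0.0322 to 0.0491) or without both 30 h samples (0.79, adjusted p 0.0212). After PHx it was 0.26 (SE 0.29, adjusted p 0.547 in edgeR).

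Mmp2 (ENSMUSG00000031740, chromosome 8, 92827291 to 92853420, plus strand) encodes gelatinase A, made as a proenzyme by stellate cells and fibroblasts. KO livers at baseline had 6.04, 4.01, 6.97, 4.61 and 6.20 CPM against 1.63, 2.65, 0.875, 0.871 and 1.83 CPM in WT. All KO samples were higher, with a log2 fold change of 1.82 (SE 0.54, adjusted p 0.0257 in edgeR). After PHx the KO livers had 2.28, 0.944, 4.31, 2.84 and 8.81 CPM and the WT livers 0.741, 0.739, 0.723, 0.567 and 2.99 CPM, which overlapped, with 1.72 (SE 0.54, adjusted p 0.0250 in edgeR). Both calls sat near the threshold. The baseline call ended without WT baseline replicate 3 or 4 or KO baseline replicate 7 or 10 (1.67 to 1.84, adjusted p 0.0513 to 0.0711). The call after PHx ended without WT PHx replicate 1, 2, 3 or 4 or KO PHx replicate 12 (1.15 to 1.59, adjusted p 0.0545 to 0.0999), without both 30 h samples (1.03, adjusted p 0.182), with a term for hours (1.55, adjusted p 0.0621) and with only the samples after PHx (1.75, adjusted p 0.130). The change after PHx was -0.44 (SE 0.54) in WT and -0.54 (SE 0.52) in KO, neither called.

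**Figure D3:**
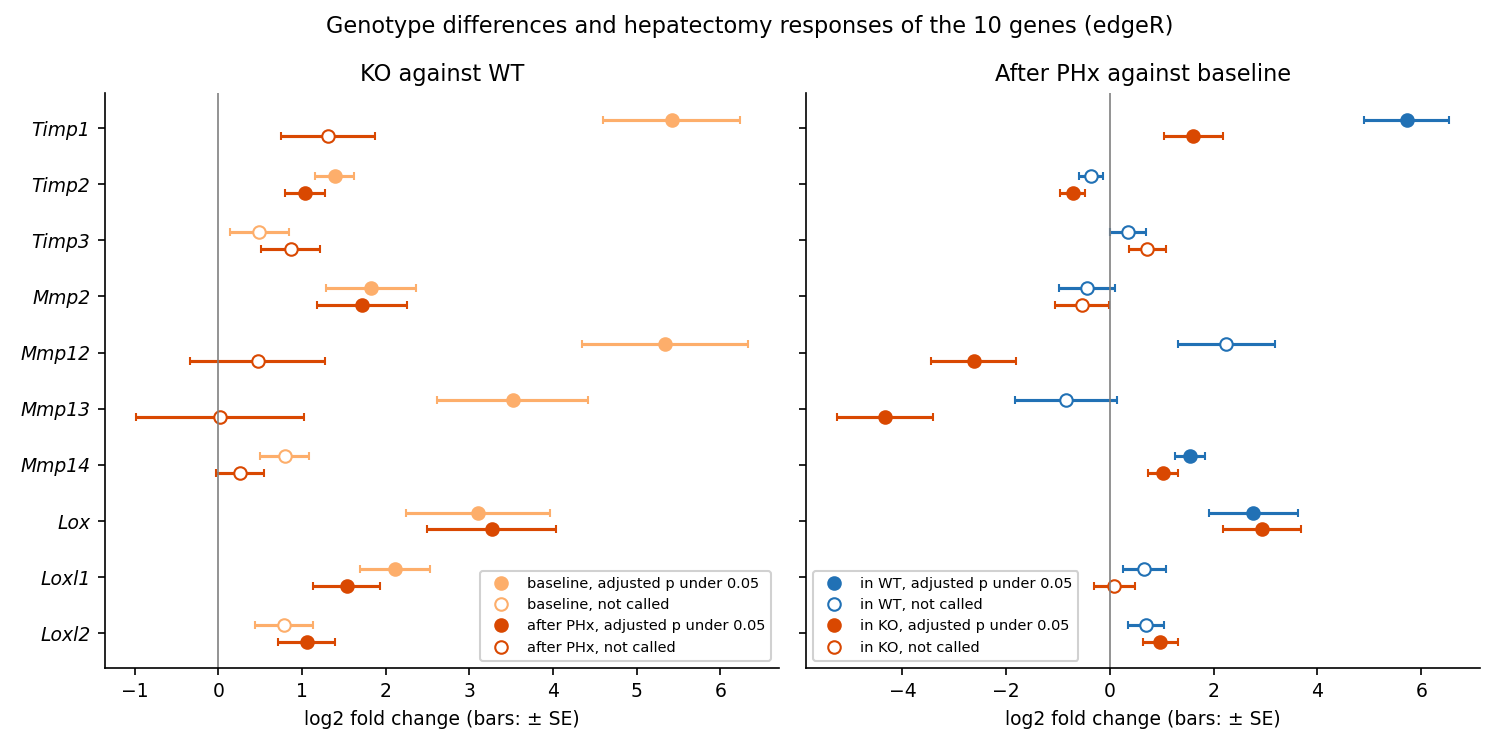
Log2 fold change ± SE (x axis) of the 10 genes (y axis) for KO against WT at each stage (left) and after PHx against baseline in each genotype (right); filled points have an edgeR adjusted p under 0.05 and open points do not. All points of the left panel lie above 0, whereas on the right Timp2 (-0.72), Mmp12 (-2.63) and Mmp13 (-4.34) are lower after PHx in KO.

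Lox (ENSMUSG00000024529, chromosome 18, 52516067 to 52529867, minus strand), the founding lysyl oxidase, was called in all 4 comparisons. WT livers at baseline had 0.195, 0.30, 0.103, 0.0917 and 0.183 CPM, and KO livers 3.58, 1.94, 0.966, 0.665 and 0.423 CPM. The groups did not overlap, and the log2 fold change was 3.10 (SE 0.86, adjusted p 0.0180 in edgeR). That call ended without WT baseline replicate 4 (2.93, adjusted p 0.0513) or KO baseline replicate 7 (2.56, adjusted p 0.0560). After PHx, WT livers had 0.436, 1.91, 1.98, 0.638 and 1.06 CPM, higher than at baseline in 4 of 4 numbered mice, a rise of 2.76 (SE 0.86, adjusted p 0.0287 in edgeR). This call ended without WT baseline replicate 1, 3, 4 or 5 or WT PHx replicate 2 or 3 (2.51 to 2.80, adjusted p 0.0534 to 0.0692).

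KO livers after PHx did not share one Lox level. The 48 h samples had 18.2 and 26.9 CPM (replicates 7 and 8), the 40 h samples 1.26 and 1.25 CPM (replicates 10 and 11), and the 30 h sample 10.5 CPM (replicate 12). WT had 0.638 and 1.06 CPM at 48 h, 1.91 and 1.98 CPM at 40 h and 0.436 CPM at 30 h. At 40 h both KO samples thus lay below both WT samples, and at 48 h both lay far above. The same mice 7 and 8 already had the highest KO levels at baseline, 3.58 and 1.94 CPM, beside 0.966 and 0.665 CPM in mice 10 and 11 and 0.423 CPM in mouse 12, so the hour and the mouse cannot be told apart. The rise in KO was 2.93 (SE 0.76, adjusted p 0.00854 in edgeR), seen in 5 of 5 mice, and KO against WT after PHx was 3.27 (SE 0.77, adjusted p 0.00427 in edgeR).

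In a further fit that let the genotype effect vary with the hour, Lox was the only one of the 10 called at 48 h, at 4.72 (SE 0.80, adjusted p 0.000995 in edgeR), where 24.3% of all genes were called (13.7% higher and 10.7% lower), with 2 samples a group. At 40 h it was -0.63 (SE 0.71, adjusted p 0.573 in edgeR), and Mmp2 was the only one called, at 2.28 (SE 0.69, adjusted p 0.0413 in edgeR), where 13.3% of all genes were called (8.61% higher and 4.68% lower). That call was lost when only the samples after PHx were fitted (2.32, adjusted p 0.293). The difference between the genotype effects at 48 h and 40 h, a test added after the data were seen, was 5.35 for Lox (SE 1.05, adjusted p 0.0191 in edgeR), called together with 4.72% of all genes (1.61% higher and 3.11% lower). Fitted on the samples after PHx only, that difference was 5.29 with an adjusted p of 0.494. The neutrophil marker sum also differed between the times in KO livers after PHx, at 83.3 and 24 CPM at 48 h, 6.03 and 4.00 CPM at 40 h and 13.3 CPM at 30 h. In WT after PHx that sum reached 46.3 CPM in replicate 3, where Lox was at 1.98 CPM. Other marker sums differed between the times in KO too. Summed cell-cycle transcripts were 8.90 and 24.1 CPM at 48 h, 411 and 66.4 CPM at 40 h and 8.71 CPM at 30 h. The myofibroblast sum was 162 and 86.8 CPM at 48 h, 253 and 219 CPM at 40 h and 166 CPM at 30 h. The part of any of these in the Lox difference was not tested.

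**Figure D4:**
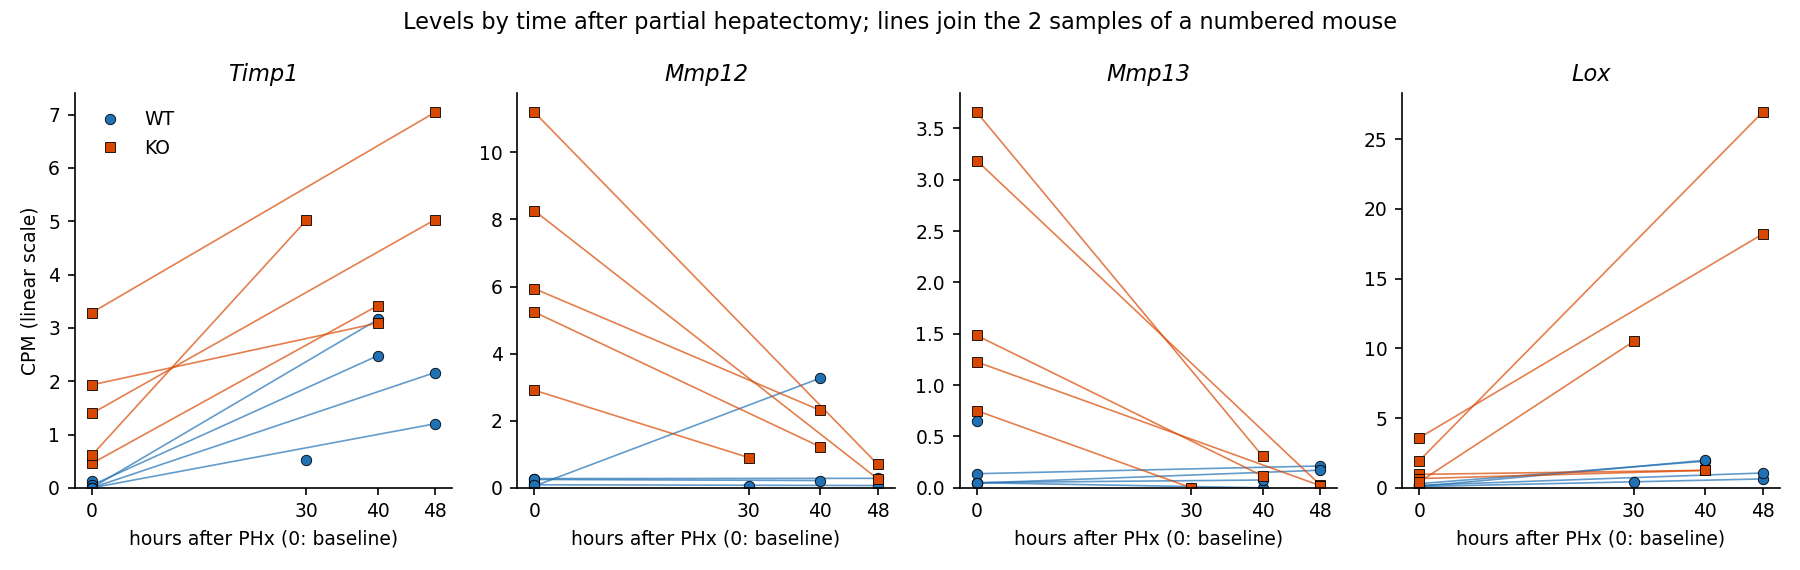
CPM (y axis, linear) of Timp1, Mmp12, Mmp13 and Lox at baseline (0 h) and 30, 40 or 48 h after PHx (x axis) in WT (circles) and KO (squares); lines join the 2 samples of each numbered mouse, and WT replicate 1, whose baseline title carries no mouse number, has no line. Every KO line of Mmp12 and Mmp13 falls, and Lox at 48 h is 18.2 and 26.9 CPM in KO.

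Loxl1 (ENSMUSG00000032334, chromosome 9, 58287738 to 58313186, minus strand), the lysyl oxidase relative best known for elastic fibres, differed by genotype and was not called after PHx in either genotype. KO livers had 7.73, 5.07, 3.69, 2.62 and 4.93 CPM at baseline against 2.54, 0.600, 0.823, 0.780 and 0.872 CPM in WT. After PHx they had 6.02, 3.05, 4.16, 5.45 and 6.82 CPM against 1.00, 1.91, 2.59, 2.20 and 1.10 CPM. It was the only gene of the 10 whose genotypes did not overlap at either stage. The log2 fold change was 2.11 at baseline (SE 0.42, adjusted p 0.00177 in edgeR) and 1.53 after PHx (SE 0.40, adjusted p 0.00907 in edgeR), and both calls held under each alternative that was run. The change after PHx was 0.66 (SE 0.41) in WT and 0.08 (SE 0.39) in KO. In WT it was called without baseline replicate 1, whose 2.54 CPM was the highest of its group (1.19, adjusted p 0.0380). Scaling by library size also called it, at 1.06 (adjusted p 0.0487).

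Loxl2 (ENSMUSG00000034205, chromosome 14, 69609068 to 69695834, plus strand), which crosslinks collagen IV and fibrillar collagen, had a smaller log2 fold change than Lox in each of the 4 comparisons. It was at 1.42 to 4.62 CPM in WT and 3.34 to 6.67 CPM in KO at baseline, and at 2.80 to 5.71 CPM and 5.54 to 14.2 CPM after PHx. It was higher after PHx in 5 of 5 KO mice and in 4 of 4 numbered WT mice, with 0.97 in KO (SE 0.34, adjusted p 0.0372 in edgeR) and 0.70 in WT (SE 0.34, adjusted p 0.156 in edgeR). KO against WT was 0.78 at baseline (SE 0.34, adjusted p 0.129 in edgeR) and 1.05 after PHx (SE 0.34, adjusted p 0.0291 in edgeR). The call after PHx ended with no filter (adjusted p 0.0513), with only the samples compared (0.0689), and without WT PHx replicate 1, 4 or 5 or KO PHx replicate 8 or 11 (0.76 to 1.05, adjusted p 0.0511 to 0.111). The call in KO ended with no filter (adjusted p 0.0691) and without KO baseline replicate 8, 10, 11 or 12 or KO PHx replicate 8 or 11 (0.68 to 0.97, adjusted p 0.0650 to 0.121). The baseline comparison was called without WT baseline replicate 1 (1.10, adjusted p 0.0380) and under library size scaling (1.31, adjusted p 0.0154), and the change after PHx in WT was called under the same 2 alternatives (1.02 and 1.08, adjusted p 0.0474 and 0.0357).

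Whether KO and WT livers responded differently to PHx was tested by the difference of the 2 responses, and 0 of the 10 genes were called by edgeR, where 0.389% of all genes were (0.164% higher and 0.225% lower). At an unadjusted p under 0.05 there were 3 of the 10, beside 13.3% of all genes, each with a negative difference (KO response minus WT response). These were Timp1 at -4.11 (SE 1.00, adjusted p 0.0755 in edgeR), Mmp12 at -4.87 (SE 1.24, adjusted p 0.0925 in edgeR) and Mmp13 at -3.50 (SE 1.35, adjusted p 0.260 in edgeR). The Timp1 response in WT is a ratio to a baseline of 3 counts in 5 libraries. Mean Timp1 went from 0.036 to 1.90 CPM in WT and from 1.54 to 4.72 CPM in KO. DESeq2 called Timp1 (-4.35, adjusted p 0.0100) and Mmp12 (-4.92, adjusted p 0.00483). In edgeR, leaving out KO PHx replicate 10 also brought in both (-4.00 and -4.92, adjusted p 0.0360 and 0.0395), while the calls over all genes went from 24 to 412 higher and from 33 to 296 lower. Leaving out WT PHx replicate 1 brought in Timp1 (-4.36, adjusted p 0.0472), with 22 higher and 47 lower over all genes. Without WT baseline replicate 1 the difference was -5.22 for Timp1, -4.82 for Mmp12 and -4.74 for Mmp13 (adjusted p 0.0612, 0.154 and 0.159 in edgeR), while the calls over all genes went from 24 to 7 higher and from 33 to 19 lower. For Mmp12 the difference rests in part on 1 WT library: of the 4 WT mice with both samples only mouse 3 had a higher level after PHx by more than 0.02 on the log2(CPM + 0.5) scale (2.77, against -0.06, 0.02 and -0.06 in mice 2, 4 and 5). Without WT PHx replicate 3 the Mmp12 difference was -2.57 (SE 0.89, adjusted p 0.262 in edgeR). For Lox the difference was 0.17 with an SE of 1.37, so responses that differ by several-fold either way were within its error.

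Per kilobase of exon, the order of levels changed between the groups. In WT at baseline Mmp14, Timp2 and Timp3 led at 4.76, 2.18 and 2.10 CPM per kilobase, well clear of Loxl2 at 0.472, and Timp1, Lox and Mmp12 came last at 0.0405, 0.0365 and 0.0221. Samples of neighbours in that order overlapped except between Timp3 and Loxl2. In KO at baseline Timp2 at 5.71 was clear of Timp3 at 2.94, Mmp12 took the seventh place at 0.927, and Lox was last at 0.317. After PHx Mmp14 led again, at 13.9 in WT, clear of the rest, and at 16.6 in KO, where its range of 8.39 to 25 overlapped that of Timp3, 2.18 to 9.57. Timp1 moved to the third place in WT, at 2.15, and to the second in KO, at 5.31, and Mmp13 came last in both, at 0.0345 and 0.0353.

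Of 75 other matrix genes listed (metalloproteinases, inhibitors, crosslinkers and collagen-modifying enzymes, procollagen processing, ADAM and ADAMTS proteases, the plasminogen system, cathepsins with Fap, and matrix substrates), 62 passed the filter. At baseline 20 of the 62 were called higher in KO and 0 lower, 32.3% against 16% of all genes, with a median log2 fold change of 1.39. The largest of those at 1 CPM or more were Plat (tissue plasminogen activator, 3.90, SE 0.99, adjusted p 0.0105 in edgeR), Eln (elastin, 2.62, SE 0.35, adjusted p 3.52e-05 in edgeR), Plod2 (a collagen lysyl hydroxylase, 2.20, SE 0.59, adjusted p 0.0145 in edgeR) and Col1a1 (collagen I, 2.02, SE 0.47, adjusted p 0.00609 in edgeR). By list, 5 of 6 matrix substrates were called higher, with Fn1 (fibronectin) at 0.14, and 3 of 6 procollagen processing genes, beside 11.1% of all genes. The other lists held 5 of 16 ADAM and ADAMTS genes, 3 of 12 other metalloproteinases, 1 of 2 other inhibitors, 1 of 5 cathepsins with Fap, 1 of 7 plasminogen system genes and 1 of 8 other crosslinkers and collagen-modifying enzymes called higher. Eln, the substrate of MMP12 and of the crosslinkers, was at 8.94 ± 0.840 CPM in KO against 1.45 ± 0.219 CPM in WT (SD, n = 5).

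After PHx, 19 of the 62 were higher and 1 lower in KO, 32.3% against 24.2% of all genes. Plat led at 255 ± 245 CPM in KO against 5.27 ± 4.43 CPM in WT (SD, n = 5; 5.59, SE 0.96, adjusted p 0.000326 in edgeR), followed by Mmp11 (stromelysin-3, 4.20, SE 0.74), Plod2 (3.01, SE 0.57) and Mmp23 (2.65, SE 0.59). The lower one was Serpinf2 (alpha-2-antiplasmin, -0.79, SE 0.26, adjusted p 0.0322 in edgeR). In WT, 16 rose after PHx and 3 fell. Those that rose included Mmp8, Plaur (urokinase receptor, 4.48, SE 1.01) and Plat (3.47, SE 0.98), with Tfpi2 (-1.51, SE 0.43), Adamts13 (-1.50, SE 0.46) and Ctsb (cathepsin B, -0.52, SE 0.18) lower. In KO, 13 rose and 4 fell. Plat (5.17, SE 0.94), Plaur (4.51, SE 0.92), Mmp3 and Adamts4 (2.95, SE 0.72) led, and Tfpi2 (-2.18, SE 0.44), Serpinf2 (-1.10, SE 0.26), Plg (plasminogen, -1.09, SE 0.31) and Adamts10 (-0.97, SE 0.21) were lower. These 2 PHx comparisons have shares of 30.6% and 27.4% called, beside 20.1% and 29.5% of all genes. In the difference of responses 0 of the 62 were called by edgeR, 8 had an unadjusted p under 0.05, a share close to the 13.3% of all genes, and DESeq2 called 3 lower, where it called 192 higher and 167 lower over all genes.

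Markers of several liver cell types, among them textbook sources of these transcripts, differed between the groups. At baseline all 6 recruited macrophage markers, 3 of 7 stellate markers, 4 of 7 myofibroblast markers, 2 of 8 Kupffer cell markers and 2 of 5 tested neutrophil markers were called higher in KO, where 11.1% of all genes were. The summed stellate markers were 77.9 to 107 CPM in WT and 140 to 197 CPM in KO at baseline, and 48.2 to 57.8 CPM and 41.5 to 111 CPM after PHx. Beside this sum, Timp2 fell after PHx in KO and was not called in WT (-0.36, adjusted p 0.289). The summed myofibroblast markers were 41.3 to 85.0 CPM in WT and 120 to 307 CPM in KO at baseline, and 57.1 to 103 CPM and 86.8 to 253 CPM after PHx. The summed neutrophil markers were 1.10 to 1.80 CPM in WT and 3.8 to 11.3 CPM in KO at baseline, with Ly6g at 0 in both groups and Ngp and Camp at 0 in WT, and reached 46.3 CPM in WT and 83.3 CPM in KO after PHx. Portal fibroblast markers were called higher in KO at baseline in 3 of 5 tested, while 0 of 8 sinusoidal endothelial and 0 of 3 lymphocyte markers were. Of 5 tested cholangiocyte markers 0 were called at baseline, but all 5 had a positive log2 fold change (median 1.59), 3 had an unadjusted p under 0.05, and their sum was 4.32 to 22 CPM in WT and 19.1 to 53.5 CPM in KO. After PHx all 5 tested cholangiocyte markers were called higher in KO, where 16% of all genes were, with sums of 28.1 to 211 CPM against 5.32 to 34.7 CPM. So were 4 of 7 myofibroblast, 2 of 5 tested portal fibroblast, 1 of 7 stellate, 1 of 6 recruited macrophage and 1 of 8 Kupffer cell markers. Of the tested neutrophil, sinusoidal endothelial and lymphocyte markers 0 were called higher in that comparison. After PHx in KO, where Timp2, Mmp12 and Mmp13 fell and 12.1% of all genes were called lower, 4 of 7 stellate, 3 of 8 Kupffer cell, 3 of 8 sinusoidal endothelial, 2 of 3 tested lymphocyte, 1 of 6 recruited macrophage and 0 of 7 myofibroblast markers were called lower. In WT, where 8.68% of all genes were called lower after PHx, the counts for the same lists were 1, 1, 3, 2, 0 and 0. Called higher after PHx were 4 of 5 tested cholangiocyte markers and 1 each of the neutrophil, Kupffer cell, sinusoidal endothelial and portal fibroblast markers in KO (17.5% of all genes), and 3 of 6 recruited macrophage, 3 of 5 tested neutrophil, 2 of 8 Kupffer cell and 1 of 5 tested portal fibroblast markers in WT (11.4%). The part of these cells in the differences above was not tested.

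The recruited macrophage markers summed to 18.9 to 22 CPM in WT and 57.1 to 81.4 CPM in KO at baseline, and to 22.8 to 62.4 CPM and 49.5 to 90.3 CPM after PHx. Cd9, which many cell types express, made up 66.2% to 97.9% of the sum. The other 5 markers summed to 0.515 to 2.41 CPM in WT and 7.46 to 27.5 CPM in KO at baseline, and to 0.893 to 15.3 CPM and 6.39 to 16.4 CPM after PHx. The highest WT value, 15.3 CPM, was in PHx replicate 3, the library with the highest WT level of Mmp12. In KO the sum after PHx overlapped that at baseline, but its members did not move alike. Gpnmb had a mean of 6.78 CPM after PHx and 3.16 CPM at baseline, whereas Ccr2 went from 5.30 to 1.86, Trem2 from 2.87 to 1.49 and Ly6c2 from 0.984 to 0.334 CPM, none of the 4 called. The median log2 fold change of the 6 markers was -1.22. Of the 6 markers, Itgax (CD11c) alone was called lower after PHx in KO, from 1.67 ± 0.301 to 0.283 ± 0.153 CPM (SD, n = 5; -2.57, SE 0.72, adjusted p 0.0135 in edgeR), and it was at 0.276 ± 0.240 CPM in WT at baseline.

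**Figure D5:**
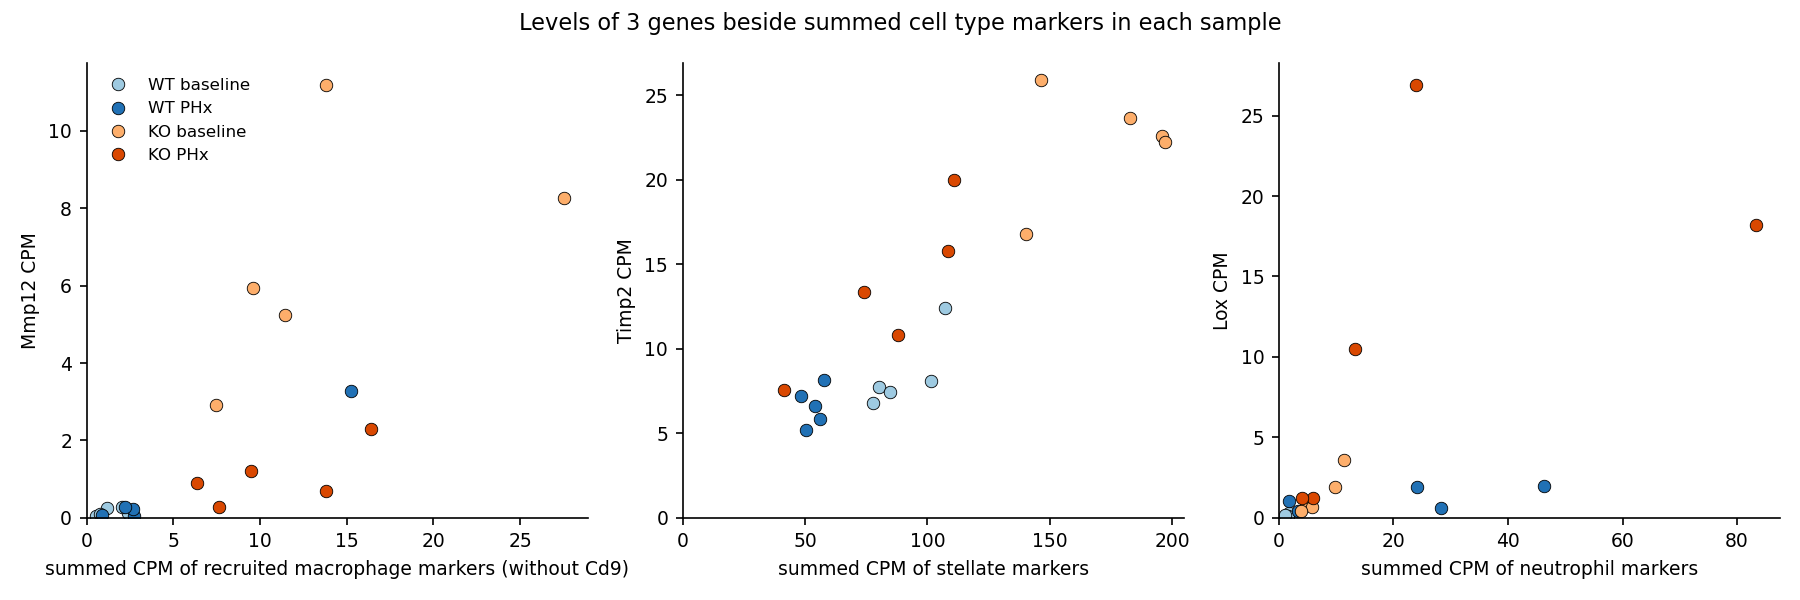
CPM of Mmp12, Timp2 and Lox (y axes, linear) against the summed CPM of 5 recruited macrophage markers (the list without Cd9), 7 stellate markers and 7 neutrophil markers (x axes), 1 point per liver sample in 4 groups. The KO samples after PHx lie at 0.27 to 2.31 CPM of Mmp12 and overlap the KO baseline samples in the macrophage marker sum, in which Gpnmb had a higher mean after PHx and the other 4 markers lower means, and Timp2 is highest in the KO baseline samples, where the stellate sum is 140 to 197 CPM.

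The genes whose log2 CPM ran most like each of the 10 over the 20 samples were found across all tested genes, as a description without a test, since the samples share groups and scaling. For Timp1 they were Anxa2 (Pearson r 0.96, and 0.79 after the group means were removed), Slpi (0.95) and Tmem268 (0.95). For Timp2 they were Bgn, the matrix proteoglycan biglycan (0.96, and 0.85 within groups), Igfbp7 (0.95) and Ceacam2 (0.92). For Mmp12 they were Lsp1, a leukocyte protein (0.90, and 0.65 within groups), Gm11454 (0.90) and Slc11a1 (0.90), and Gm11454 (0.90) was also second for Mmp13 behind Sdr16c5 (0.92). Lox was closest to Hs6st2 (0.94, and 0.91 within groups), Mmp14 to Wdr1 (0.95, and 0.85 within groups), Mmp2 to Cyp2c55 (0.89), Timp3 to Asap1 (0.86), Loxl1 to Gldn (0.90) and Loxl2 to Sparc, a collagen-binding matrix protein (0.90). Among the 10 themselves the closest pairs were Timp2 with Mmp2 (0.86, and 0.58 within groups) and Timp1 with Lox (0.85, and 0.66), followed by Timp1 with Loxl2, Timp1 with Mmp14 and Mmp12 with Mmp13 (each 0.78). The last was 0.25 once the group means were removed, so that pair shared its pattern between groups more than between mice of a group.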

How the data were processed

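Liver RNA from 20 mouse samples was measured. The authors deposited 1 file per library with unnormalised read counts for Ensembl genes, whole numbers as the values show. Per the design text, RNA of an integrity number above 8 went into TruSeq libraries for paired-end sequencing on a NovaSeq instrument. Reads were trimmed with fastp 0.20.0 per that text, while the submitters' processing notes name Trimmomatic 0.36; both name FastQC 0.11.5. Reads were aligned to mm10 and those mapped to 1 place were counted. The aligner, counter, strand setting and annotation are not given in the sources used here, so reads of genes overlapping on opposite strands, such as Timp1 and Syn1, cannot be told apart.

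Symbols and coordinates came from GENCODE M21, which matched 46091 of 46603 identifiers. edgeR 4.0.16 in R 4.3.3 was run on the counts with filterByExpr, TMM and the two-sided quasi-likelihood test, in 1 fit of 4 group means over 20 samples, and in a second with a mean per genotype and time. SE is the log2 fold change over the root of F. The labels pair baseline and PHx samples by mouse number in 9 mice. Residual correlations of same-numbered samples ran from 0.016 to 0.091 in WT (4 pairs) and from -0.065 to 0.176 in KO (5 pairs). Those of the other combinations of a baseline and a PHx sample ran from -0.074 to 0.083 in WT and from -0.236 to 0.274 in KO. The ranges overlap, so the pairing rests on the labels. Replicates differed from each other by more than counting noise (chi-square per gene 25.7 to 471), and WT baseline replicate 1 from the rest of its group by 310 to 337. Intervals cover counting error only.

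Other matrix genes are named where called, at 1 CPM or more, with the 4 highest and 4 lowest log2 fold changes, except 1 that is not reported here; likeness is Pearson r of log2(CPM + 0.5); Timp4, Itgax and the row of Mmp genes were chosen after their values were seen. The 10 genes and all lists were chosen with earlier results of these data known. Cell lists held 4 to 8 markers; Tf of the hepatocyte list was not found. Alternatives were another scaling, filter, tool (DESeq2 1.42.0), set of samples, an hours term, the mouse block and each replicate left out. The scripts were tested on simulated data.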

Additional observations from a re-analysis of the deposited data

Results flagged for a closer look

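In 40 groups of 5 samples (10 genes in 4 groups), 7 held a highest sample set apart from the other 4 by a gap beyond the 95% limit of Dixon's test for 5 values. Chance gives about 1 in 20 groups where values are normally distributed. That was not shown for linear CPM, here in part from few counts, so the 7 cannot be read against that rate. Timp2 was at 12.4 CPM in WT baseline replicate 2, where the next sample had 8.08 CPM. Timp3 was at 77.9 CPM in KO PHx replicate 12, next 34.3 CPM. Mmp2 was at 2.99 CPM in WT PHx replicate 5, next 0.741 CPM. Mmp12 was at 3.27 CPM in WT PHx replicate 3, next 0.284 CPM. Mmp13 was at 0.650 CPM and Loxl1 at 2.54 CPM in WT baseline replicate 1, next 0.138 and 0.872 CPM. Loxl2 was at 6.67 CPM in KO baseline replicate 7, next 4.10 CPM. WT baseline replicate 1 holds 2 of the 7 and has the lowest TMM factor of the 20 libraries, 0.670.

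The genotype effect on Lox differed between 48 h and 40 h after PHx by 5.35 on the log2 scale (SE 1.05, adjusted p 0.0191 in edgeR; 2 samples per genotype and time), in a test added after the data were seen. Fitted on the samples after PHx only, it was 5.29 with an adjusted p of 0.494.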

How the results depend on the processing

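Each alternative changed 1 choice, except that DESeq2 changes the test together with its own scaling and filter. No called result changed direction. Scaling by library size alone moved the median log2 fold change of all genes by 0.48, 0.38, 0.36 and 0.27 in the 4 comparisons and by -0.09 in the difference of responses. With it, 34 other matrix genes (in place of 20) were higher in KO at baseline; after PHx in WT, 6 of the 10 genes (3) and 26 other matrix genes (16) were higher and 1 (3) lower; at 40 h, 3 of the 10 (1) and 18 others (7) were higher; at 48 h, 4 of the 10 (1) were higher; and in the 48 h less 40 h difference 1 other matrix gene (3) was higher and 1 (2) lower. Over all genes library size scaling called 3521 (1631) higher and 113 (717) lower at baseline, 3796 (1677) and 582 (1273) after PHx in WT, 2904 (1263) and 208 (686) at 40 h, 3035 (2002) and 551 (1565) at 48 h, and 94 (236) and 293 (456) in the 48 h less 40 h difference. With only the samples compared, other matrix genes called were 31 higher and 4 (0) lower at baseline and 11 (19) higher and 0 (1) lower between genotypes after PHx, where 3 of the 10 genes (5) were higher, and 5 (3) were lower after PHx in WT, and over all genes 2846 (1631) were higher and 2396 (717) lower at baseline and 1127 (2342) and 218 (1202) between genotypes after PHx. After PHx in WT, 1424 (1273) were lower over all genes. With only the samples after PHx, 0 of the 10 and 0 others were higher at 40 h, 1 other (16) was higher and 0 (4) lower at 48 h, and the 48 h less 40 h difference called 0 of the 10, 0 others higher and 0 lower; over all genes these called 1 (1263) higher and 0 (686) lower, 173 (2002) and 28 (1565), and 0 (236) and 0 (456). With no filter, 2 of the 10 (4) were higher after PHx in KO, and 0 others (1) were lower between genotypes after PHx and 1 (3) after PHx in WT. The counts over all genes were then 2390 (2561), 953 (1202) and 860 (1273). DESeq2 called 2 others lower between genotypes after PHx, 5 after PHx in WT, and 2 of the 10 (0) and 3 others (0) lower in the difference of responses, where it called 192 (24) higher and 167 (33) lower over all genes. Over all genes it called 1437 (1202) lower between genotypes after PHx and 1437 (1273) lower after PHx in WT. A term for hours gave 3 others lower between genotypes after PHx, and leaving out the 30 h samples gave 0. Over all genes these 2 settings called 1448 and 1019 lower (1202).

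Leaving out 1 replicate at a time, between 3 (without WT PHx replicate 1) and 6 of the 10 genes were higher between genotypes after PHx, with 0 to 3 other matrix genes lower (over all genes 1938 to 2975 higher and 757 to 2151 lower). After PHx in KO, 2 to 5 of the 10 were higher and 1 to 3 lower, with 3 to 7 others lower (all genes 1789 to 3404 higher and 1098 to 2633 lower), and after PHx in WT 1 to 5 others were lower (all genes 755 to 1455). In the difference of responses, 0 to 2 of the 10 and 0 to 3 others were lower, the highest counts without KO PHx replicate 10, where the calls over all genes were also the most, 412 higher (range 6 to 412) and 296 lower (15 to 296). Each of these fits also had 1 sample fewer, and why the counts moved was not tested.

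With the mouse as a replicate block, the pairing that the labels give, no call among the 10 genes changed: 3 were higher in WT, 4 higher and 3 lower in KO, and 0 in the difference of responses. Over all genes the block called 889 higher and 1104 lower in WT, where the fit without it called 1677 and 1273, 1575 higher and 1732 lower in KO (2561 and 1770), and 2 higher and 5 lower in the difference of responses (24 and 33). Genes under about 1 CPM, such as Timp1, Mmp13 and Lox in WT at baseline with 3, 16 and 17 counts over 5 libraries, rest on few counts, and their log2 fold changes between genotypes at baseline carry SEs of 0.82, 0.91 and 0.86.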

Other observations

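The fourth tissue inhibitor gene, Timp4, did not pass the filter on low counts and was not tested. It had 0 counts in WT at baseline, 9 in KO at baseline and 7 in WT after PHx, and 326 in KO after PHx, where it ran from 0.0381 to 4.05 CPM over 5 samples. Elsewhere its highest values were 0.266 CPM in WT livers after the operation and 0.211 CPM in resting KO livers.

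Mmp14 after PHx was set beside cell-cycle transcripts (Mki67, Top2a, Ccnb1 and Cdk1), since the livers differed widely in these. In WT, the summed cycling markers were 211, 1.04, 36.7, 1.03 and 711 CPM in replicates 1 to 5, and Mmp14 was 41.1, 97.1, 91.0, 125 and 59.9 CPM. The highest Mmp14 was thus in the library with the lowest cycling sum, and the 2 lowest Mmp14 values were in the 2 libraries with the highest sums. In KO after PHx the cycling sums were 8.90, 24.1, 411, 66.4 and 8.71 CPM and Mmp14 was 109, 149, 73.4, 114 and 50.0 CPM, where the same order did not appear, since replicate 12 was lowest in both. No test was run on these 5 values per genotype.

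Reck, which encodes a membrane-anchored metalloproteinase inhibitor, was called higher in KO at both stages: the log2 fold change was 1.46 before the operation (SE 0.39, adjusted p 0.0150 in edgeR) and 1.17 following it (SE 0.38, adjusted p 0.0319). Tgm2, a crosslinking transglutaminase, rose after PHx in both genotypes, by 2.19 in WT (SE 0.35, adjusted p 0.000414 in edgeR) and 1.38 in KO (SE 0.34, adjusted p 0.00703 in edgeR), while KO against WT was 0.98 (adjusted p 0.0549 in edgeR) at baseline and 0.17 (adjusted p 0.742 in edgeR) after PHx. Adamts2, the procollagen N-proteinase, was called higher in KO at both stages, by 1.58 (SE 0.32, adjusted p 0.00194 in edgeR) and 1.32 (SE 0.31, adjusted p 0.00431 in edgeR). These 3 genes were chosen after their values were seen.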
